A study of Mus musculus with 18 samples.

Results

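The 10 genes described here make and modify fatty acids: Acly, Acss2 and Me1, which supply carbon and reducing power, Acaca and Fasn, which build the chain, Elovl5 and Elovl6, which lengthen it, Scd1 and Scd2, which desaturate it, and Srebf1, which encodes a transcription factor of the pathway. They were chosen by name, and all 10 were found among the 47729 gene identifiers counted. Polyadenylated RNA was sequenced in bulk from sorted epithelial cells of mouse ileum, where the small intestine ends. There were 18 libraries: 6 from lactating females at lactation day 7, 6 from virgin males and 6 from virgin females, with the virgin animals matched to the lactating ones by age. The labels name no transgene, allele or strain for any group. Mice ate the RM3 diet while breeding and the RM1 diet in maintenance and in the experiment, so reproductive state cannot be told apart from a breeding diet eaten before sampling. Sorting gates, and whether each library came from a separate animal, are not given in the sources used here, so the p-values measure the spread between these libraries.

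Cells make fatty acids from cytosolic acetyl-CoA. ATP citrate lyase (Acly) makes it from citrate and acetyl-CoA synthetase (Acss2) from acetate, acetyl-CoA carboxylase (Acaca) turns it into malonyl-CoA, and fatty acid synthase (Fasn) joins these units into palmitate with NADPH, to which malic enzyme (Me1) contributes. Elongases then lengthen the chain and stearoyl-CoA desaturases place a double bond in it. The transcription factor SREBP1, encoded by Srebf1, drives many of these genes, and its own gene is a target of the liver X receptors. In the small intestine the fat taken up from the diet by villus enterocytes adds to what is made, and dividing cells use newly made fatty acids for membranes.

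On GRCm38 (GENCODE M21), Fasn (ENSMUSG00000025153) lies on chromosome 11 at 120805846 to 120824547, Acaca (ENSMUSG00000020532) at 84129672 to 84401651, Acly (ENSMUSG00000020917) at 100476353 to 100528000 and Srebf1 (ENSMUSG00000020538) at 60199089 to 60222581 of the same chromosome. Scd1 (ENSMUSG00000037071) and Scd2 (ENSMUSG00000025203) lie near each other on chromosome 19, at 44394455 to 44407879 and 44293674 to 44306864, on opposite strands. Elovl5 (ENSMUSG00000032349) and Me1 (ENSMUSG00000032418) are on chromosome 9 at 77917364 to 77984519 and 86581371 to 86695953. Elovl6 (ENSMUSG00000041220) is on chromosome 3 at 129532355 to 129638495 and Acss2 (ENSMUSG00000027605) on chromosome 2 at 155517948 to 155585724.

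The start regions of 4 of the genes are shown as examples: Fasn, Acly and Acss2 had the highest correlations with the cell cycle score given below, and Elovl5 had a low one. Each is the RefSeq window (build GRCm38.p6) from 250 bases before to 50 bases after an annotated start, written 5′ to 3′ along the gene. The Fasn window is chr11:120824498-120824797 on the minus strand, that of Acly is chr11:100527951-100528250 on the minus strand, that of Acss2 is chr2:155517793-155518092 on the plus strand and that of Elovl5 is chr9:77917115-77917414 on the plus strand. Capitals mark every match, on either strand, to CCAAT (the CCAAT box), GGGCGG (the GC box), CACGTG (an E-box) or TCACNCCAC (a sterol regulatory element, the site that SREBP proteins bind).
Fasn: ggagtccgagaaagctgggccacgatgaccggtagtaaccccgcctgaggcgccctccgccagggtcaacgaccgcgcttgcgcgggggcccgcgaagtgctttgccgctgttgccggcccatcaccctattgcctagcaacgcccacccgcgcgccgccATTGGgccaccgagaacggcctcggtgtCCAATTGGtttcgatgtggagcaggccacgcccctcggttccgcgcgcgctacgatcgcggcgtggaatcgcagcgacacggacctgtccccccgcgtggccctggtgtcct
Acly: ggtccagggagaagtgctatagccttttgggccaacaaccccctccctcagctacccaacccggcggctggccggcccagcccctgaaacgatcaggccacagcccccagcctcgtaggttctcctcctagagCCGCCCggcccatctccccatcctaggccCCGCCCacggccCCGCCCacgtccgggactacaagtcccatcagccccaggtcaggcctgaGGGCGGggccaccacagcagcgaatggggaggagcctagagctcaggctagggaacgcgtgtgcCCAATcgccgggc
Acss2: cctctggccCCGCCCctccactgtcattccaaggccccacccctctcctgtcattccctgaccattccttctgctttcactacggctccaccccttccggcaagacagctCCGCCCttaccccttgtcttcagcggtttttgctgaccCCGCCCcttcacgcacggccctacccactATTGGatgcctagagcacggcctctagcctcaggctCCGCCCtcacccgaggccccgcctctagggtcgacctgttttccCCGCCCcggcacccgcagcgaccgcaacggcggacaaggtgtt
Elovl5: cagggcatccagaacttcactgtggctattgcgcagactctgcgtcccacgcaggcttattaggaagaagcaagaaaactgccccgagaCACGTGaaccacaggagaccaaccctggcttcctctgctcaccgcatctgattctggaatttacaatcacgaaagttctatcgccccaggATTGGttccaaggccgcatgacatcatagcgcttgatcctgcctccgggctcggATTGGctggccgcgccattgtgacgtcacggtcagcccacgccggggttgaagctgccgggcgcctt

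The Fasn window held 3 CCAAT matches, of which those at positions -62 to -58 and -59 to -55 from the start overlap. Acly had 1 CCAAT and 4 GC box matches, and Acss2 had 1 CCAAT and 5 GC box matches. Elovl5 had 2 CCAAT matches and 1 E-box. GC box matches also lay in genes with a low r with the cell cycle score. The Me1 windows (r = -0.06) held 4 and 0, and the Srebf1 windows (r = 0.08) held 0, 3 and 2. The Fasn window held 0. Across all 32851 promoter windows of the same length, 37.4% held a CCAAT, 35.7% a GC box and 7.15% the E-box, and 408 windows held the sterol element. The windows of Acaca, which also went with Fasn, and of Elovl6 held no match to any of the 4 motifs. The Acaca window, chr11:84195188-84195487 on the plus strand, lies inside the gene, which is annotated from 84129672. The 5′ end of Acaca was therefore not examined. RefSeq windows were matched for 8 of the 10 genes, 11 windows in all, not including Scd1 and Scd2. TCACNCCAC was in 0 of the 11, which says only that these letters are not in these windows. A match is a stretch of letters, not a measured binding site.

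None of the 10 genes passed the test between any pair of groups. The libraries are bulk RNA, so in every difference below, fewer cells of a type and less RNA per cell cannot be told apart. Genes were tested with edgeR's quasi-likelihood test on the counts and called at a Benjamini-Hochberg adjusted p under 0.05 over 15572 genes. Between lactating and virgin females 0 of 10 were called, against 0.0578% of all genes. Between virgin males and virgin females 0 of 10 were called, against 0.0835%, and between lactating females and virgin males 0 of 10, against 0.764%. With DESeq2 and with limma's voom the count was also 0 in each comparison. At an unadjusted p under 0.05 there were 3 of 10 between lactating and virgin females (Elovl5, Srebf1 and Scd1; 6.44% of all genes), 1 of 10 between males and females (Scd2; 8.32%) and 4 of 10 between lactating females and males (Acss2, Elovl5, Srebf1 and Scd1; 15.9%). The lactating and the virgin male comparisons share the virgin female libraries, and the third shares its libraries with both, so they are not independent.

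Total counts per library lay between 37984403 and 46046333 for lactating females, 34577104 and 47748407 for virgin males, and 36508736 and 49039300 for virgin females. Levels are given as CPM, counts normalised to library size with TMM factors, and a count of 3 equals 0.0612 to 0.0868 CPM, far below every value of the 10 genes. The ribosomal RNA overlapping transcript Gm42418 held 3.35% of counts in virgin male 6 and 2.89% in virgin female 2, against 0.137% to 0.408% in the other libraries. The summed level of 8 epithelial markers was 12125 to 20091 CPM over the 18 libraries and that of 5 ileal enterocyte markers 2947 to 15657 CPM, while 10 fibroblast and smooth muscle markers summed to 0.128 to 1.15 CPM and 11 leukocyte markers to 7.82 to 20.7 CPM. Of 8 adipocyte markers, the defining genes Plin1, Lep and Cfd were at 0 in every library and Adipoq reached at most 0.0866 CPM. The list still summed to 101 to 336 CPM in lactating females, 72.2 to 166 CPM in virgin males and 96.5 to 224 CPM in virgin females, through Cidec and Lipe.

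Divided by exon length, Scd2 was the highest of the 10 genes, with 49 ± 12.3 CPM per kb over the 18 libraries (SD), and it was above Elovl6 in 18 of 18. Elovl6 followed with 18.6 ± 4.12, Acly with 15.6 ± 2.58 and Srebf1 with 14.5 ± 2.37 CPM per kb. These 3 were close: Elovl6 was above Acly in 15 of 18 libraries and Acly above Srebf1 in 12 of 18. Srebf1 was above Elovl5 in 18 of 18. Elovl5 at 9.86 ± 1.37 and Fasn at 9.55 ± 2.47 CPM per kb could not be ordered, with Elovl5 higher in 8 of 18 libraries. Me1 had 6.59 ± 3.78, Scd1 3.64 ± 1.92, Acaca 3.12 ± 0.598 and Acss2 3.12 ± 0.5 CPM per kb, and neighbours among the last 3 traded places, each being above the next in 10 of 18. Among 15517 genes with a length, Scd2 stood at the 92.6th percentile and Acaca and Acss2 at the 47.8th. Exon length here is the union over all annotated transcripts of a gene, so a gene transcribed mainly in a shorter form is placed too low.

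**Figure D1:**
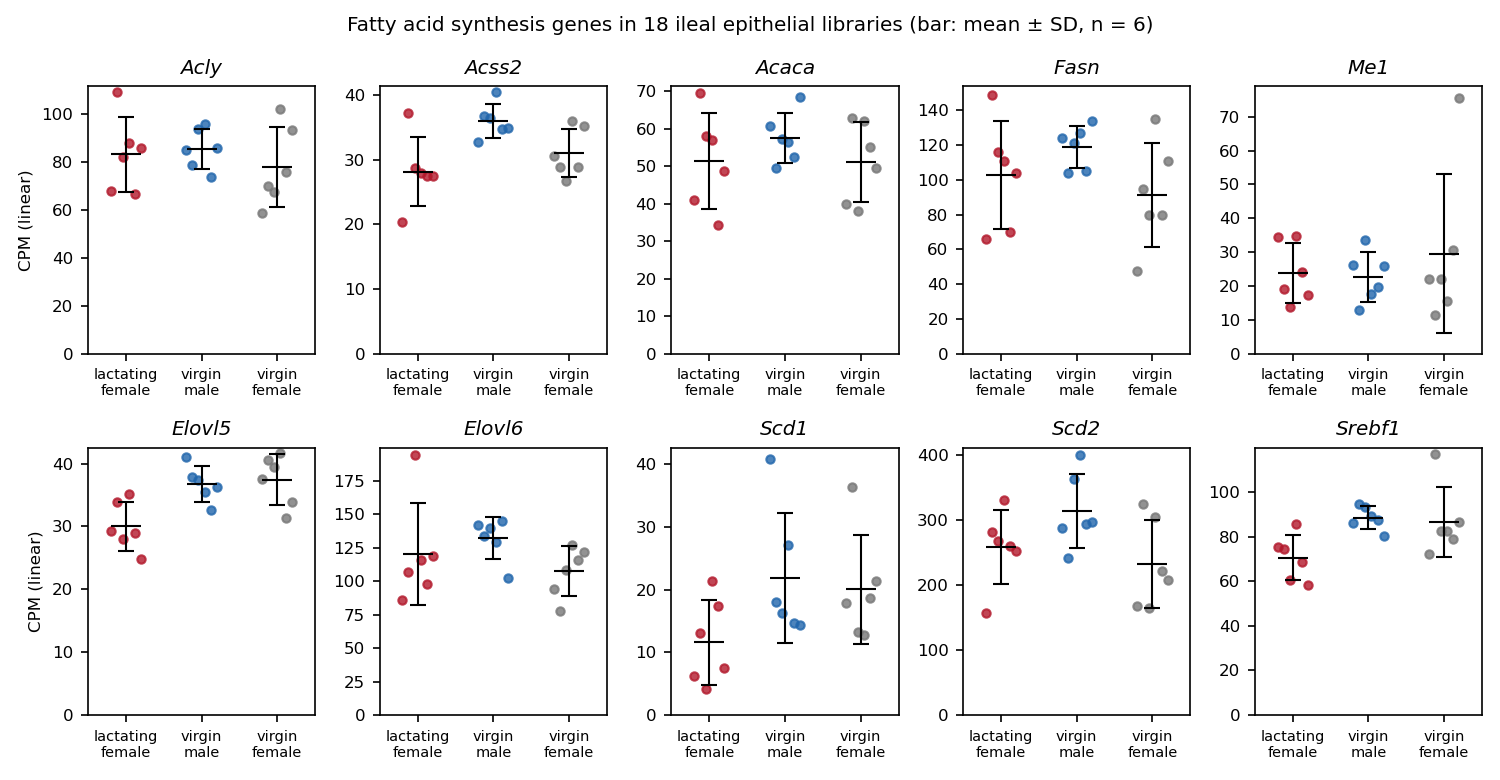
Level of each of the 10 genes in CPM (linear axis from 0) in lactating females (red), virgin males (blue) and virgin females (grey); points are libraries, and bars are the mean ± SD of 6. The groups overlap in all 10 panels, with lactating libraries low in Scd1, Elovl5 and Srebf1, and single high libraries in Me1 (75.6 CPM in virgin female 6) and Elovl6 (194 CPM in lactating female 3).

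Among the suppliers of carbon and NADPH, Acly was nearly level across the groups. It ran from 66.3 to 109 CPM in lactating females (median 83.8), from 73.7 to 95.6 in virgin males (median 85.1) and from 58.6 to 102 in virgin females (median 72.7). Its log2 fold change was 0.09 (SE 0.14, edgeR adjusted p = 0.965) in lactating against virgin females, which leaves a fold of 0.88 to 1.29 within 2 SE, and 0.13 (SE 0.14, adjusted p = 0.709) in males against females. In lactating females against males it was -0.04 (SE 0.14).

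Acss2, which recovers acetate, was highest in males. It ran from 20.3 to 37.2 CPM in lactating females (median 27.7), from 32.7 to 40.4 in virgin males (median 35.7) and from 26.7 to 36 in virgin females (median 29.7). In 5 of 6 lactating libraries it was below the lowest male, and lactating female 2, at 37.2 CPM, was inside the male range. The difference between lactating females and males was -0.35 on the log2 scale (SE 0.12, edgeR adjusted p = 0.176). Without lactating female 2 it was -0.45 and passed the test (adjusted p = 0.0365), the only call of any of the 10 genes in all the alternatives tried. Over all genes that fit called 311 of 15699, against 119 of 15572 in the main fit. Against virgin females the Acss2 differences were -0.14 in lactating females (SE 0.12, adjusted p = 0.922) and 0.22 in males (SE 0.11, adjusted p = 0.565). Acss2 shares 395 exonic bases with Gss on the other strand, whose median count was 4154.5 against 1302 for Acss2. The counting's strand setting is not given in the sources used here, so reads from this stretch cannot be assigned.

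Me1 varied more within groups than between them. Its lowest, median and highest values were 13.7, 21.7 and 34.7 CPM for lactating females, 12.8, 22.7 and 33.5 CPM for virgin males, and 11.4, 22 and 75.6 CPM for virgin females. The 3 medians differ by at most about 1 CPM, and virgin female 6 alone holds the female mean up at 29.6 ± 23.5 CPM. The log2 fold change was -0.31 (SE 0.37) in lactating against virgin females and -0.39 (SE 0.37) in males against females. Without virgin female 6 these were 0.23 and 0.15, with the sign turned.

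Acaca, the step that commits acetyl-CoA to fatty acids, did not separate the groups. It ran from 34.2 to 69.6 CPM in lactating females (median 52.8), from 49.4 to 68.5 in virgin males (median 56.8) and from 38 to 62.7 in virgin females (median 52.2). The means of lactating and virgin females were 51.4 ± 12.8 and 51.2 ± 10.7 CPM (SD, n = 6 each), a log2 difference of 0.01 (SE 0.16, edgeR adjusted p = 1), within a fold of 0.80 to 1.25. The sign of this difference turned in 8 of 29 alternatives, between -0.10 and 0.15.

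Fasn, the synthase itself, was evenly high in males and scattered in both female groups. It ran from 65.7 to 149 CPM in lactating females (median 107), from 104 to 134 in virgin males (median 123) and from 47.4 to 135 in virgin females (median 87.4). In all 6 male libraries it was above the virgin female mean, and 4 of 6 virgin female libraries were below the lowest male. The coefficient of variation was 30.2% in lactating females, 10.1% in males and 32.8% in virgin females. Males against virgin females gave a log2 fold change of 0.39 (SE 0.21, edgeR adjusted p = 0.565), a fold of 0.98 to 1.76 within 2 SE. Lactating against virgin females gave 0.17 (SE 0.21, adjusted p = 0.952), and lactating females against males -0.22 (SE 0.21, adjusted p = 0.579).

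Elovl6, which extends palmitate to stearate, resembled Fasn in the order of its group means, highest in males and lowest in virgin females. Its range was 86 to 194 CPM in lactating females (median 112), 102 to 145 in virgin males (median 137) and 78 to 127 in virgin females (median 112). Lactating female 3 at 194 CPM was far above the next lactating library at 119 CPM, and without it the log2 difference from virgin females was -0.03 in place of 0.16 (SE 0.17). Males against virgin females gave 0.30 (SE 0.17, edgeR adjusted p = 0.566), with 5 of 6 males above the female mean.

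Elovl5, which extends polyunsaturated chains, was the tightest of the 10 genes and the one with the smallest p between lactating and virgin females. It ran from 24.8 to 35.1 CPM in lactating females (median 29.1), from 32.6 to 41.1 in virgin males (median 36.8) and from 31.4 to 41.7 in virgin females (median 38.6). In 4 of 6 lactating libraries it was below every virgin library of either sex, and lactating females 2 and 4 were inside the virgin range. The log2 fold change was -0.32 against virgin females (SE 0.10, unadjusted p = 0.00335, edgeR adjusted p = 0.442) and -0.29 against males (SE 0.10, adjusted p = 0.178). All 6 lactating libraries were below the mean of each virgin group, and the fold was 0.70 to 0.91 against virgin females within 2 SE. Males and virgin females differed by -0.03 (SE 0.10), a fold of 0.86 to 1.12.

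Scd1, a desaturase that makes oleate and palmitoleate, had the largest fold changes of the 10 genes in both comparisons of lactating females, though not between males and virgin females. Its highest library was 9.88 times its lowest, with a coefficient of variation of 52.8% over the 18 libraries, second to Me1 with 57.3%. It ran from 4.12 to 21.3 CPM in lactating females (median 10.3), from 14.4 to 40.8 in virgin males (median 17.1) and from 12.8 to 36.4 in virgin females (median 18.3). Lactating females 1, 3 and 6 were below every virgin library, while lactating females 2, 4 and 5 were inside the virgin range. The log2 fold change was -0.79 against virgin females (SE 0.37, edgeR adjusted p = 0.774), a fold of 0.35 to 0.97 within 2 SE, and -0.91 against males (SE 0.37, adjusted p = 0.26). The highest virgin female value, 36.4 CPM, was in virgin female 2, 1 of the pair of libraries rich in Gm42418. Without that library the difference between lactating and virgin females was -0.53.

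Scd2, the more abundant desaturase, did not share that pattern. It ran from 157 to 330 CPM in lactating females (median 264), from 241 to 399 in virgin males (median 295) and from 165 to 324 in virgin females (median 214). Lactating and virgin females overlapped over nearly their whole ranges, with a log2 difference of 0.16 (SE 0.19, edgeR adjusted p = 0.951). All 6 males were above the virgin female mean, with a log2 difference of 0.44 (SE 0.19, adjusted p = 0.565) and a fold of 1.04 to 1.76. Lactating females against males gave -0.28 (SE 0.19, adjusted p = 0.453). Scd1 and Scd2 are related genes, and reads shared with their copies Scd3 and Scd4 could be split by the counting. The mean of Scd3 was 0.248 CPM in lactating females, 0.374 in virgin males and 0.386 in virgin females, and that of Scd4 was 0.249, 0.265 and 0.227 CPM in the same groups.

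Srebf1 was lower in lactating females than in both virgin groups by similar amounts, without passing the test. It ran from 58.5 to 85.6 CPM in lactating females (median 71.5), from 80.2 to 94.5 in virgin males (median 88.3) and from 72.4 to 117 in virgin females (median 82.3). In 5 of 6 lactating libraries it was below the lowest male, and in 3 of 6 below the lowest virgin female. The log2 fold change was -0.30 against virgin females (SE 0.11, edgeR adjusted p = 0.641), a fold of 0.70 to 0.95 within 2 SE, and -0.33 against males (SE 0.11, adjusted p = 0.196), a fold of 0.68 to 0.93. Without virgin female 2, at 117 CPM, the difference from virgin females was -0.19. Males and virgin females differed by 0.03 (SE 0.11). The counts sum over all start sites of the gene, so the SREBP-1a and SREBP-1c forms cannot be told apart, and 109 exonic bases are shared with Rai1 on the other strand, which had a median count of 563 against 3699.5 for Srebf1.

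**Figure D2:**
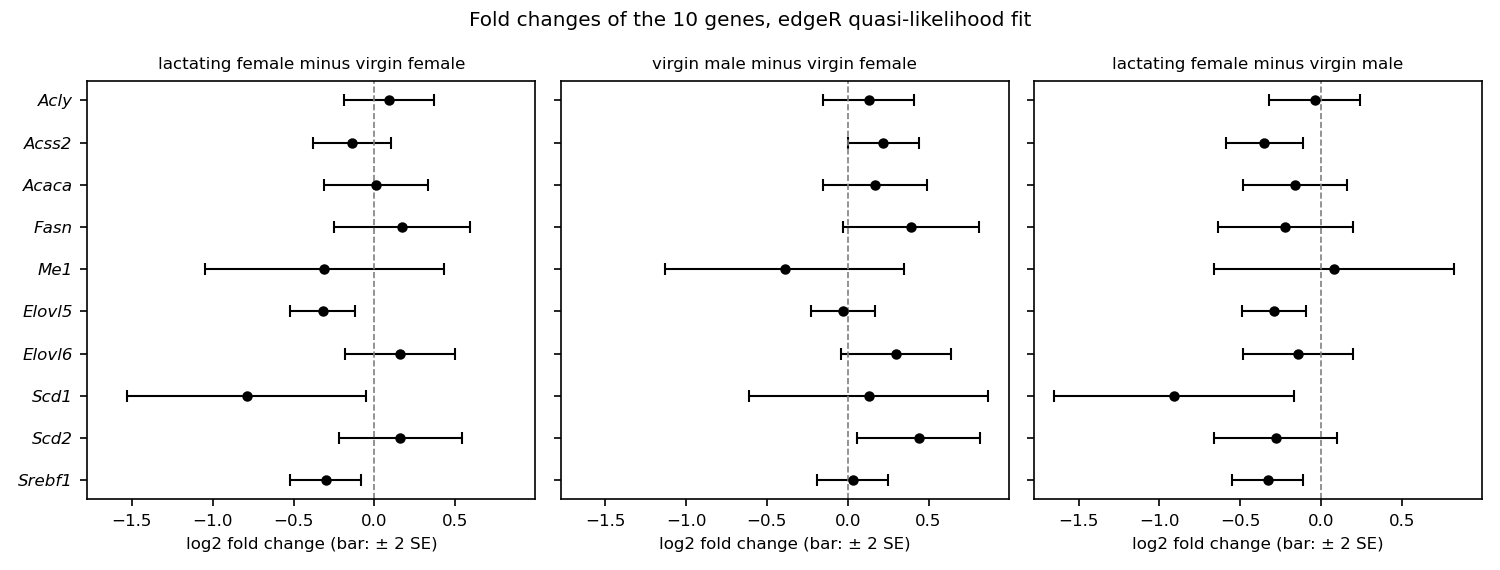
Log2 fold change of the 10 genes (points; bars ± 2 SE) in lactating against virgin females, virgin males against virgin females and lactating females against virgin males, as the first group minus the second. In the first panel Scd1 (-0.79), Elovl5 (-0.32) and Srebf1 (-0.30) lie below 0 with bars that do not reach it, in the second Scd2 (0.44) alone lies clear of 0, and none passed the adjusted threshold.

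Over the 10 genes as a set, the lactating female values were above those of virgin females for 5 genes and below for 5, with a median log2 fold change of -0.07 beside -0.0026 over all genes. Males were above virgin females for 8 and below for 2, with a median of 0.15 beside -0.0130. Lactating females were above males for 1 gene (Me1) and below for 9, with a median of -0.25 beside -0.0084. That split depends on the crypt to villus terms given with the scores below: 3 genes were above males with the cell cycle score in the fit and 4 with the villus score. Among other epithelial cell types, 8 enteroendocrine markers summed to a median of 356 CPM in lactating females (228 to 445), 218 in males (157 to 298) and 227 in virgin females (183 to 248). The medians of 6 Paneth cell markers were 5342 CPM in lactating females (3724 to 10479), 9340 in males (3465 to 14593) and 8997 in virgin females (1101 to 14528). Their part in the lower lactating values of Scd1, Elovl5 and Srebf1 was not tested.

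The libraries differ in the levels of genes of dividing cells, which lie in the crypt, and of genes of villus enterocytes. Of the 10 genes, 5 correlated with a score of dividing cells by both measures of correlation used, as did Scd2 by 1 of them. A cell cycle score, the mean log2 CPM of 35 genes of dividing cells, was 4.49 ± 0.62 in lactating females, 4.87 ± 0.17 in virgin males and 4.43 ± 0.57 in virgin females (SD, n = 6 each). A villus score of 17 enterocyte genes was 10.50 ± 0.72 in lactating females, 9.77 ± 0.55 in males and 10.39 ± 0.57 in virgin females. The scores had a Pearson r of -0.875 with each other over the 18 libraries, so they are largely one axis read from both ends. None of the 10 genes is in either list. Much of the transcriptome follows this axis: of 15537 genes outside the cell cycle list, 2.56% had an r with its score at least as high as Fasn, 4.49% as Acly, 11.2% as Acss2, 16.1% as Acaca, 16.6% as Elovl6 and 19.4% as Scd2. For each score 10 correlations were computed, with permutation p-values from 100000 permutations and Benjamini-Hochberg adjustment over the 10.

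Fasn rose with the cell cycle score over the 18 libraries with r = 0.93 and rho = 0.93 (permutation p = 1e-05, the smallest these permutations give, for both; adjusted p = 5e-05 for r). Taken group by group, r was 0.96 for lactating females, 0.79 for virgin males and 0.90 for virgin females, and it was 0.89 without the 2 libraries farthest from the median score, lactating female 1 and virgin female 1. Acly rose likewise, with r = 0.89 (permutation p = 1e-05, adjusted p = 5e-05) and rho = 0.86 (permutation p = 4e-05). By group its r was 0.87 in lactating females, 0.91 in males and 0.96 in virgin females, and it was 0.87 without those 2 libraries.

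Acss2 had r = 0.77 and rho = 0.74 with the cell cycle score (permutation p = 0.00017 and 0.00074, adjusted p = 0.000567 for r), with 0.91 in lactating females, 0.40 in males and 0.68 in virgin females, and 0.74 without the 2 farthest libraries. Acaca had r = 0.68 and rho = 0.64 (permutation p = 0.0021 and 0.00526, adjusted p = 0.00468 for r), with 0.86, 0.48 and 0.39 in lactating females, males and virgin females, and 0.56 without the 2 farthest. Elovl6 had r = 0.67 and rho = 0.63 (permutation p = 0.00234 and 0.0066, adjusted p = 0.00468 for r). Its r was 0.64 in lactating females, -0.18 in males and 0.77 in virgin females, so the relation did not hold among males, and it was 0.55 without the 2 farthest. Scd2 had r = 0.62 and rho = 0.49 (permutation p = 0.00574 and 0.042, adjusted p = 0.00957 for r and 0.07 for rho), so rho did not pass. Its r was 0.75 in lactating females, 0.74 in males and 0.35 in virgin females, and the pooled r was 0.30 without the 2 farthest libraries, so the pooled relation rests in large part on them.

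For the other 4 genes neither score gave a relation that passed over the 18 libraries pooled. With the cell cycle score r was 0.08 for Scd1, 0.21 for Elovl5, 0.08 for Srebf1 and -0.06 for Me1 (permutation test, adjusted p = 0.824, 0.579, 0.824 and 0.824), and rho was -0.05, 0.18, 0.20 and -0.19 (permutation test, adjusted p = 0.843 for Scd1 and 0.53 for the others). With the villus score r was -0.06, -0.29, -0.07 and 0.09 (permutation test, adjusted p of 0.351 or above). The villus score ran the other way for the first group: r was -0.81 for Fasn (rho -0.92), -0.78 for Acss2 (rho -0.72), -0.72 for Acly (rho -0.79), -0.68 for Acaca (rho -0.64) and -0.55 for Scd2 (rho -0.52), with permutation-based adjusted p-values of 0.0003, 0.001, 0.0031, 0.00495 and 0.0364 for r and 0.0002, 0.0032, 0.00125, 0.0136 and 0.0495 for rho. Elovl6 had r = -0.49 and rho = -0.54 with it (permutation, adjusted p = 0.0616 for r and 0.0458 for rho), and r was 0.91 among males against -0.71 in lactating and -0.74 in virgin females. Without virgin male 6 and lactating female 1, the libraries farthest from the median villus score, the r of these 6 genes lay between -0.81 and -0.44. Of 15555 genes outside the villus list, 4.78% had an r with its score at least as low as Fasn. The share was 7.41% for Acss2, 11% for Acly, 13.7% for Acaca, 22.2% for Scd2 and 26% for Elovl6. By group, Me1 with the villus score had r = 0.78 in lactating females, -0.34 in males and -0.25 in virgin females. With the cell cycle score it had -0.66, 0.33 and 0.32 in that order, and Scd1 had 0.02, 0.61 and -0.38. Elovl5 kept its sign in every group with both scores.

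**Figure D3:**
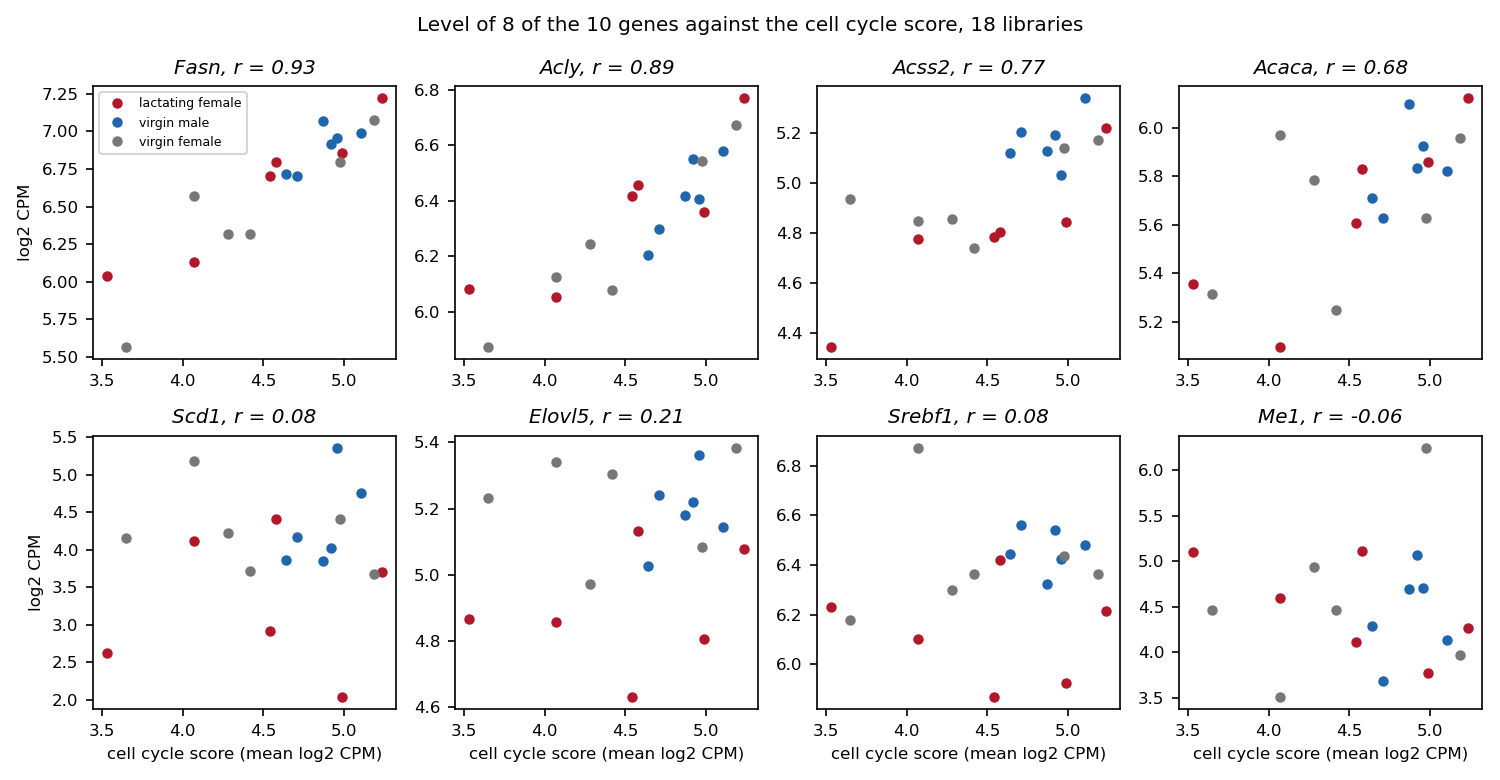
Log2 CPM of 8 of the genes against the cell cycle score (mean log2 CPM of 35 genes), with lactating females in red, virgin males in blue and virgin females in grey. Fasn and Acly climb along one line in all groups (r = 0.93 and 0.89), whereas Scd1, Elovl5, Srebf1 and Me1 scatter (r = 0.08, 0.21, 0.08 and -0.06), with 3 lactating libraries at the bottom of the Scd1 panel.

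The male libraries stood at the high end of the cell cycle score, from 4.64 to 5.11, against 3.65 to 5.19 in virgin females. With the score as a term in the fit, the male minus virgin female difference on the log2 scale was 0.12 for Fasn in place of 0.39, 0.28 for Scd2 in place of 0.44, 0.14 for Elovl6 in place of 0.30, 0.08 for Acss2 in place of 0.22 and -0.05 for Acly in place of 0.13. With the villus score as the term, an alternative chosen after seeing the data, Fasn was at 0.11 and Scd2 at 0.30. The lactating minus virgin female differences moved little with the cell cycle term: Elovl5 was at -0.33, Srebf1 at -0.29 and Scd1 at -0.78, in place of -0.32, -0.30 and -0.79. In lactating females against males, Fasn turned to 0.01 and Acly to 0.12 with the cell cycle term, and Elovl6 was at -0.02, Acss2 at -0.25, Srebf1 at -0.34, Elovl5 at -0.27 and Scd1 at -0.94. With the villus term Fasn was at 0.12, Acly at 0.18, Acaca at 0.04, Elovl6 at -0.01 and Acss2 at -0.20. None of the 10 genes was called with either term.

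Within groups, after each library's value was centred on its group mean, the genes went together in similar sets. Of 45 pairs, 34 had a Pearson r above 0 and 11 were above 0.5, with a median of 0.22 and a range of -0.41 to 0.91 over the 18 libraries, which share their place on the crypt to villus axis. Fasn went with Acly (0.91), Acaca (0.81), Acss2 (0.65) and Scd2 (0.65), and Acly with Acss2 (0.75). Srebf1 went with Scd1 (0.57) and Elovl5 (0.54) and not with Fasn (0.18), Acly (0.08) or Acss2 (-0.04). Virgin female 2 was the highest virgin female in both Srebf1 (117 CPM) and Scd1 (36.4 CPM). Among males the highest Scd1, 40.8 CPM in male 1, stood beside 85.9 CPM of Srebf1. The highest male Srebf1, 94.5 CPM in male 2, stood beside 18 CPM of Scd1. The r of these pairs was not computed group by group or without virgin female 2. The lowest pair was Elovl6 with Srebf1 (-0.41). Me1 reached at most 0.14 with any other gene of the set. The sets were read from these values and carry no test. No such counts are given here for pairs of other genes, so whether 11 of 45 is unusual cannot be told.

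**Figure D4:**
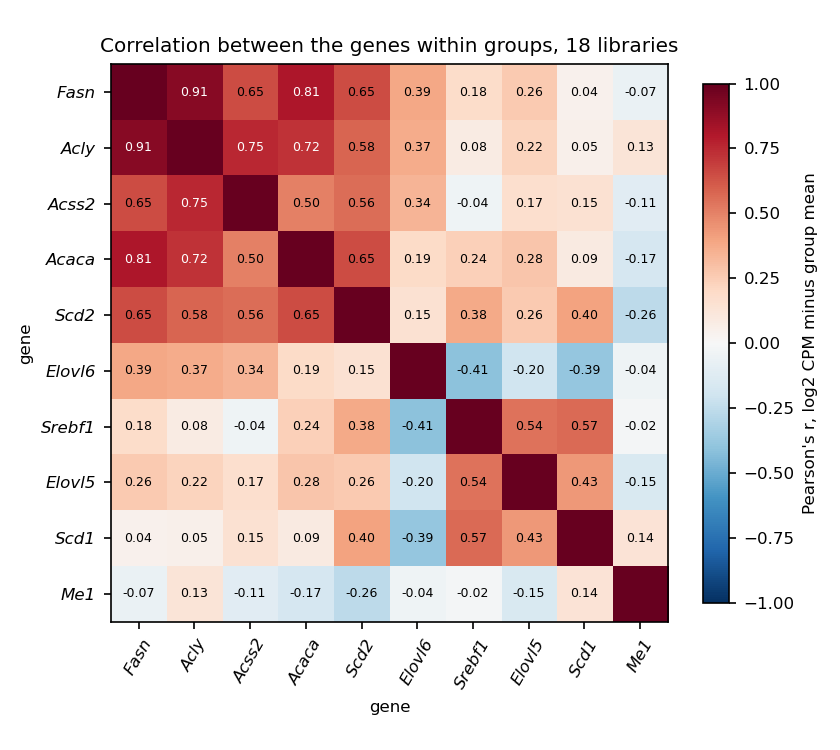
Pearson r of log2 CPM between the 10 genes over 18 libraries after subtraction of group means, from -1 (blue) to 1 (red). A block of Fasn, Acly, Acss2, Acaca and Scd2 holds r from 0.50 to 0.91, and a smaller block of Srebf1, Elovl5 and Scd1 holds 0.43 to 0.57, while Me1 lies between -0.26 and 0.14.

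Set against 9390 genes with a mean of at least 5 CPM, the closest to Fasn by the same centred r were Yeats2 (0.985), Cad (0.984), Nup210 (0.982), Grhl2 (0.981) and Mki67 (0.980), the last also being in the cell cycle list. The closest to Srebf1 were Smad5 (0.899), Pigm (0.880), Ncoa7 (0.860), Tacc2 (0.842) and Stk35 (0.837). Scd1 had no neighbour as close: Tshz1 and Tst at 0.731, Acaa2 at 0.707, Paqr5 at 0.694 and Tfpi2 at 0.689.

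Around the 10 genes, 80 other genes of the pathway and its control were listed in 5 lists, of which 71 were tested. Between lactating and virgin females 0 of 71 were called, against 0.0578% of all genes. Over all genes 0.0835% were called between males and virgin females and 0.764% between lactating females and males. Nr0b2, a nuclear receptor without a DNA-binding domain that represses other nuclear receptors, was the only 1 of the 71 called in these 2 comparisons. It averaged 0.412 ± 0.167 CPM in virgin males, set against 4.81 ± 2.64 CPM for virgin females (SD, 6 libraries each), with no overlap (0.259 to 0.704 against 2.46 to 9.82 CPM), a log2 fold change of -3.53 (SE 0.63, edgeR adjusted p = 0.0296). Lactating females had 6.61 ± 5.61 CPM, ranging from 0.39 to 15.7, and were above males with a log2 fold change of 3.99 (SE 0.64, adjusted p = 0.00268).

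The 12 genes for carbon and NADPH supply had a median log2 fold change of -0.00 in lactating against virgin females, -0.05 in males against females and 0.03 in lactating females against males. G6pdx, the entry of the pentose phosphate pathway, averaged 66.4 ± 9.02 CPM in lactating against 84.7 ± 20.3 CPM in virgin females, with all 6 lactating libraries below the virgin mean (log2 -0.35, SE 0.14, edgeR adjusted p = 0.677). Cs, citrate synthase, averaged 644 ± 115 CPM in males against 867 ± 189 CPM in virgin females (log2 -0.43, SE 0.17, adjusted p = 0.565).

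The list for carboxylation and synthase accessories had 8 tested genes and is not confined to genes that serve Fasn. Its medians were 0.07, 0.34 and -0.12 in the same order of comparisons. Mcat, the mitochondrial malonyl transferase, averaged 8.81 ± 0.91 CPM in males against 6.39 ± 1.12 CPM in virgin females, with 6 of 6 males above the female mean (log2 0.46, SE 0.14, edgeR adjusted p = 0.565). Mid1ip1, which promotes polymerisation of acetyl-CoA carboxylase, averaged 37.8 ± 5.97 CPM in males against 29.6 ± 7.4 CPM in virgin females (log2 0.35, SE 0.18, adjusted p = 0.565). Thrsp and Olah were too low to be tested.

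The 15 tested genes for other elongation and desaturation steps had medians of 0.04, 0.08 and -0.10. Fads3 of the fatty acid desaturase family was the closest to a call, at 3 ± 0.805 CPM in lactating females, 1.73 ± 0.273 CPM in males and 1.8 ± 0.404 CPM in virgin females. In 5 of 6 lactating libraries it was above every virgin library, and lactating female 1, at 1.47 CPM, was inside the virgin range. Its log2 fold change was 0.73 against virgin females (SE 0.21, edgeR adjusted p = 0.396) and 0.79 against males (SE 0.21, adjusted p = 0.0955). Elovl1, which makes very long saturated chains, averaged 117 ± 23.2 CPM in lactating females against 89.4 ± 6.08 CPM in males (log2 0.39, SE 0.14, adjusted p = 0.217).

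The 25 genes that control the pathway through SREBP, the liver X receptors or ChREBP had medians of -0.03, -0.06 and 0.00. Insig2, which holds SREBP in the endoplasmic reticulum, was at 74.8 ± 24.9 CPM in lactating females, 41.9 ± 10.6 CPM in males and 55.1 ± 21.1 CPM in virgin females. Its log2 fold change was 0.84 against males (SE 0.26, edgeR adjusted p = 0.161) and 0.44 against virgin females (SE 0.26, adjusted p = 0.854). Med15, a Mediator subunit that SREBP binds, averaged 59.3 ± 5.89 CPM in lactating against 68 ± 9.12 CPM in virgin females (log2 -0.20, SE 0.10, adjusted p = 0.784).

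The 11 tested genes among other targets of SREBP1 or the liver X receptors had medians of -0.01, 0.19 and -0.10. Abca1, the cholesterol exporter induced by the liver X receptors, ran from 14 to 48.4 CPM in lactating females, from 18.9 to 42.5 CPM in males and from 35.2 to 93.6 CPM in virgin females. All 6 lactating and all 6 male libraries were below the virgin female mean of 59.8 ± 22.2 CPM. The log2 fold change against virgin females was -1.22 in lactating females (SE 0.30, edgeR adjusted p = 0.221) and -0.78 in males (SE 0.30, adjusted p = 0.565). Acsl5, an acyl-CoA synthetase of the enterocyte, averaged 1363 ± 473 CPM in lactating females against 881 ± 246 CPM in males (log2 0.63, SE 0.25, adjusted p = 0.254), beside the higher villus score of the lactating libraries. The part of the crypt to villus axis in these list values was not tested.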

How the data were processed

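The authors deposited raw read counts per gene, 1 table per library; build GRCm38, the aligner HISAT2 2.0.4, featureCounts (Subread 2.0.0), FastQC 0.11.5 and DESeq2 1.24.0 are named in the submitters' processing notes. The annotation, strand setting and treatment of multiply matching reads are not given in the sources used here. Per the labels' protocols, RNA came from a column kit and the library kit keeps strand. Of 47729 identifiers, 47310 were named from GENCODE M21, which also gave exon lengths; 0 rows named no gene. The 153 pairs of libraries all differed beyond sampling noise (lowest chi-square per degree of freedom 35.6).

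From the counts, edgeR 4.0.16 (R 4.3.3) kept 15572 genes (filterByExpr) and fitted 1 quasi-likelihood model with TMM factors to all 18 libraries, adjusted by Benjamini-Hochberg at 0.05. Each SE was obtained as the absolute log2 fold change over the root of F. Log values used a prior count of 2. The fit was tested on simulated data. Intervals cover spread between libraries, floors counting error only. Correlations used Python 3.11.15 with numpy 2.4.6 and scipy 1.17.1. Alternatives were DESeq2 1.42.0, voom in limma 3.58.1, other filters and scalings, leaving out libraries, a replicate block and crypt or villus covariates.

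The genes and lists were chosen with earlier results of these data known. The text names all 10 genes, from each list those called and up to 4 by smallest p, and the 5 nearest genes of Fasn, Scd1 and Srebf1. Scd3 and Scd4 were named as copies of Scd1 and Scd2.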

Additional observations from a re-analysis of the deposited data

Results flagged for a closer look

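In 30 groups of 6 libraries (10 genes in 3 groups), the highest or lowest library stood apart from the others by Dixon's test at the 95% level in 5, and chance flags about 1 in 20 groups. Elovl6 was at 194 CPM in lactating female 3, against 119 CPM in the next lactating library. Elovl6 was also low in virgin male 6, at 102 CPM, where the next male was at 129 CPM. Virgin male 6 is 1 of the pair of libraries rich in Gm42418. The other of that pair, virgin female 2, was high in both Scd1 and Srebf1: Scd1 was at 36.4 CPM against 21.3 CPM in the next virgin female, and Srebf1 at 117 CPM against 86.6 CPM. Me1 was at 75.6 CPM in virgin female 6, against 30.6 CPM in the next. Whether the Gm42418 content has a part in these values was not tested.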

How the results depend on the processing

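Over 29 alternatives for each of the 10 genes in 3 comparisons, 839 of 870 log2 fold changes kept their sign and their side of the threshold, 30 changed sign and 1 passed the threshold (Acss2, lactating females against males, without lactating female 2). Leaving out single libraries moved the count of called members between 0 and 1 in that comparison. Not all sign changes were of differences near 0: Me1 against virgin females (-0.31 in lactating females, -0.39 in males) and Fasn in lactating females against males (-0.22) turned as well. For lactating against virgin females, Acaca was at -0.002614 with the replicate block and -0.04079 with the cell cycle score as covariate, and leaving out single libraries gave -0.09971 to 0.09968 for Acaca, -0.001289 to 0.187 for Acly, -0.03214 to 0.2372 for Elovl6 and -0.4732 to 0.2332 for Me1. For males against virgin females, Elovl5 was at 0.008241 with voom, Acly at -0.04606 with the cell cycle and -0.04182 with the villus covariate, and Acaca at -0.02275 with the latter covariate; single libraries gave -0.07387 to 0.005829 for Elovl5, -0.5562 to 0.1503 for Me1, -0.1485 to 0.3813 for Scd1 and -0.01614 to 0.1351 for Srebf1. For lactating females against males, Fasn was at 0.01034 and Acly at 0.1212 with the cell cycle covariate, Fasn at 0.1178, Acly at 0.1785 and Acaca at 0.04257 with the villus covariate, and single libraries gave -0.1317 to 0.01975 for Acly and -0.06019 to 0.2303 for Me1. The cause was not tested.

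The count of all genes called, the background for the members, was less stable. For lactating against virgin females it was 9, and 69 with DESeq2, 2 with voom, 15 with a filter of 1 CPM in 6 libraries, 1 with the replicate block, 1 without virgin female 2 and virgin male 6, 1 with the 2 groups alone, 59 and 33 with the cell cycle and villus covariates, and 2 to 16 without single libraries. For males against virgin females it was 13, and 30 with DESeq2, 20 with voom, 20 with no filter and 10 to 18 without single libraries. For lactating females against males it was 119, and 410 with DESeq2, 217 with voom, 61 without that pair of libraries, 67 with the villus covariate and 62 to 311 without single libraries. The correlation of Elovl6 with the villus score was -0.68 without the pair. Deviations of same-numbered libraries from their group means had r from -0.219 to 0.477. For virgin males and virgin females r was over 0.1 in 3 of 6 pairs, and 2 of 6 matched their own number best. With 6 pairs per comparison this cannot tell whether the numbers pair the samples, and the main fit used no pairing. The lowest value of any member, 4.12 CPM, is far above a count of 3.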

Other observations

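The balance between related enzymes can be read within a library, where the scaling cancels. Scd1 over Scd2 (CPM over CPM) had a lowest, median and highest value of 0.0154, 0.0427 and 0.0669 in lactating females, 0.0447, 0.0588 and 0.142 in virgin males, and 0.0422, 0.0936 and 0.113 in virgin females. The lowest ratio of Scd1 to Scd2 was in a lactating library. Elovl5 over Elovl6 was 0.145, 0.299 and 0.339 in lactating females, 0.225, 0.278 and 0.355 in virgin males, and 0.272, 0.347 and 0.519 in virgin females. The groups overlap in both ratios, and neither was tested.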
